A study of Arabidopsis thaliana with 35 samples.

Results

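The heat response of wild-type *Arabidopsis thaliana* Columbia-0 (WT) in the first hour of the day was measured as the difference between 4 libraries of seedlings kept at 37 °C and 4 libraries of seedlings kept at 22 °C, 8 of the 35 libraries of the series. All seedlings had grown for 12 days on plates with Murashige and Skoog medium and sucrose, at 22 °C in 12 h of light and 12 h of dark, and neither group carried a mutation or a transgene. At lights on a subset was moved for 1 h into a chamber at 37 °C, and whole seedlings of both groups were collected at zeitgeber time 1 (ZT1), which is 1 h after lights on. The move to another chamber and the heat cannot be told apart, since no group moved at 22 °C is described. The other libraries hold WT at 10 °C, the clock mutants *cca1lhy* and *prr7prr9*, and a second time of day, ZT6, and 2 of these sets are used here for a direct comparison, *cca1lhy* at 37 °C and 22 °C at ZT1 and WT at 37 °C and 22 °C at ZT6.

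Plants meet sudden heat with the heat shock response. Heat shock factors (HSFs) bind heat shock elements in front of genes for heat shock proteins (HSPs), chaperones that keep other proteins from clumping, refold them or pull clumps apart. A small set of HSFs of class A1 starts the response, and HSFA2, itself made under heat, prolongs it. The morning is also the time when the clock genes *CCA1* and *LHY* are high and when genes of photosynthesis are being switched on by light, so heat at ZT1 meets a transcriptome that is in motion.

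The deposited values are log2 CPM (counts scaled to the total of the library) for 37898 genes, normalized so that every library has the same set of values, and the log2 fold change (LFC) is the difference between the group means of these values. Every library therefore spans the same range, from 1.23 for a gene without reads to 15.09 for the highest gene, and the offset of 5 counts that the authors added makes the LFC of weakly expressed genes smaller than their true change. The libraries are small. From the smallest steps between values, about 1.13 to 3.98 M reads were estimated for each 22 °C library and about 1.3 to 1.76 M for each 37 °C library, with replicate 1 at 22 °C the deepest. Within a group any 2 libraries correlated at 0.957 to 0.982 (22 °C) and 0.947 to 0.963 (37 °C) across genes, which are not independent replicates, and no pair held the same values. Replicate 3 at 22 °C stood apart in 1 respect that bears on what follows. It held more heat shock transcript than the other 22 °C libraries, as the values below show, and results that rest on it are given without it as well.

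Of 25727 genes tested, 1794 were higher (6.97%) and 1620 lower (6.3%) at 37 °C at an LFC over 1 in size and an adjusted p (Benjamini-Hochberg) under 0.05 (limma on all 23 libraries of ZT1, n = 4 per group). The 8 libraries did not overlap between the temperatures for 11.1% of genes in the direction of a rise and for 13.9% in the direction of a fall, 25.1% in all. The rises were far larger than the falls. LFCs over 5 were reached by 57 genes, and LFCs between 2 and 5 by 542, while only 122 genes fell by more than 2 on the log2 scale and the deepest fall was −4.02. The 3 classes of rises had median levels at 22 °C near that of all genes tested (3.08 log2 CPM), with 2.72 for the 57, 2.86 for the 542 and 3.16 for the 1195 with LFCs of 1 to 2. The 122 genes of the deepest falls had stood at a median of 6.4 and those with falls of 1 to 2 at 4.81. Without replicate 3 at 22 °C the counts were 1746 and 1596.

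**Figure D1:**
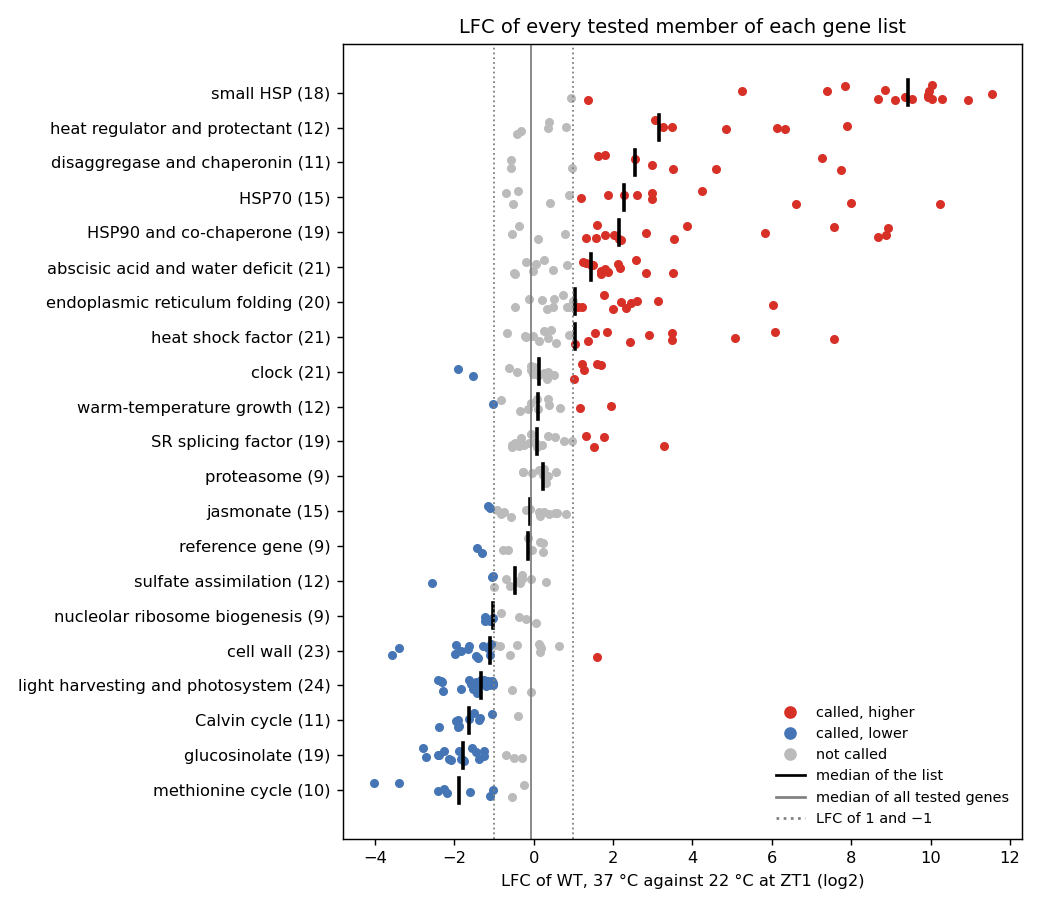
LFC of WT at 37 °C against 22 °C at ZT1 (log2, horizontal axis) for every tested member of 21 gene lists, 1 point for each gene, with the number of tested members in brackets. Red points were called higher, blue points lower and grey points neither; black ticks are list medians, which run from 9.44 for the small HSPs to −1.89 for the methionine cycle, against −0.06 for all genes (grey line).

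The small HSPs, which bind unfolding proteins and hold them for later refolding, had the largest rises of all lists. Of 18 members 17 rose, against 6.97% of all genes, with a median LFC of 9.44 against −0.06 for all genes tested. The 8 libraries separated in the direction of a rise for all 18, against 11.1% of all genes. The member not called was HSP15.4, with an LFC of 0.94. HSP17.6C (AT1G53540), a cytosolic small HSP, stood at 1.80, 1.23, 4.89 and 2.97 log2 CPM in replicates 1 to 4 at 22 °C and at 14.37, 15.09, 13.85 and 13.71 at 37 °C (LFC 11.53 ± 0.58 SE, limma adjusted p = 6.48e-14). At 22 °C it ran from no reads in replicate 2 to a level in replicate 3 that was still far under every 37 °C library.
HSP17.4 (AT3G46230), a close relative, showed 1.86, 1.84, 4.39 and 2.89 at 22 °C and 13.71, 14.05, 13.71 and 13.29 at 37 °C (LFC 10.94 ± 0.48). The same library, replicate 3, was again the highest of the 22 °C group.

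The rise was shared by small HSPs of different compartments. HSP23.6 (AT4G25200) of the mitochondrion had 1.50, 2.2, 3.46 and 2.46 log2 CPM at 22 °C and 12.42, 12.31, 12.42 and 12.61 at 37 °C (LFC 10.04 ± 0.42, limma adjusted p = 2.2e-15). HSP21 (AT4G27670) of the chloroplast had 1.23, 1.84, 2.38 and 1.53 at 22 °C and 10.88, 10.90, 10.84 and 10.74 at 37 °C (LFC 9.10 ± 0.21). HSP22.0 (AT4G10250) of the endoplasmic reticulum had 1.50, 1.23, 3.67 and 2.46 at 22 °C and 12.15, 12.24, 12.20 and 11.99 at 37 °C (LFC 9.93 ± 0.42). For these 3 genes the 37 °C libraries lay closer together than the 22 °C libraries. HSP17.6A, HSP18.2, HSP17.8, HSP17.6II, HSP17.6B and HSP26.5 rose by LFCs between 9.36 and 10.27, and HSP14.2 by only 1.37. Reads of closely related members can be assigned to a relative, so the split among such members is uncertain. Without replicate 3 at 22 °C, 17 members were still called and the median LFC was 9.59.

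**Figure D2:**
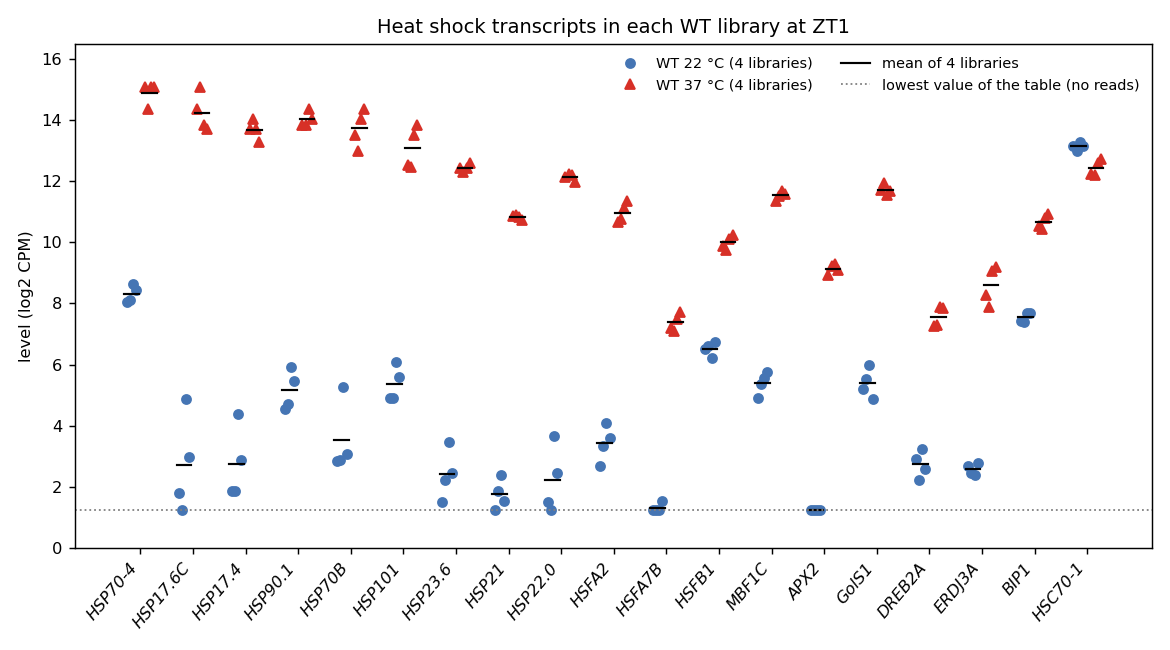
Level (log2 CPM) of 19 heat shock genes in each WT library at ZT1, 22 °C as blue circles and 37 °C as red triangles, with the group mean as a black bar and the value of a gene without reads (1.23) as a dotted line. All genes but HSC70-1 lie higher in every 37 °C library, and HSP17.6C at 22 °C runs from 1.23 to 4.89.

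The HSP70 chaperones bind exposed stretches of proteins and release them with ATP. Of 15 members 10 rose, against 6.97% of all genes, none fell, and the median LFC was 2.28. HSP70-4 (AT3G12580), a cytosolic member, was abundant already at 22 °C, with 8.05, 8.11, 8.62 and 8.44 log2 CPM, and at 37 °C it had 15.09, 14.37, 15.09 and 15.09 (97.3-fold, LFC 6.6 ± 0.24, limma adjusted p = 1.23e-16). It was the highest gene of 3 of the 4 heated libraries and second to HSP17.6C in replicate 2, a place that LHCB1.3 held in all 4 libraries at 22 °C. Because the top value is fixed at 15.09 by the normalization, its LFC may understate the change.
HSP70B (AT1G16030) had 2.84, 2.87, 5.28 and 3.06 at 22 °C and 13.53, 12.99, 14.05 and 14.37 at 37 °C (LFC 10.22 ± 0.49), with replicate 3 again apart from the other 22 °C libraries. HSC70-1 (AT5G02500), the constitutive cytosolic HSP70, went the other way without being called. It had 13.16, 12.99, 13.29 and 13.16 at 22 °C and 12.24, 12.20, 12.61 and 12.74 at 37 °C (LFC −0.70 ± 0.21, limma adjusted p = 0.0119), so that the 8 libraries did not overlap while the LFC stayed under 1 in size. Among the organellar members mtHsc70-2 of the mitochondrion rose by 4.23 and cpHsc70-1 of the chloroplast by 1.87, whereas mtHsc70-1 had −0.51 and cpHsc70-2 0.88 and neither was called.

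HSP90 and its helpers and the disaggregases followed the same course. Of 19 genes of HSP90 and co-chaperones 15 rose (median LFC 2.14), and of 11 disaggregases and chaperonins 8 rose (median 2.55). Of all genes 6.97% rose, and neither list held a fall. HSP90.1 (AT5G52640), the heat-inducible cytosolic HSP90, had 4.55, 4.70, 5.93 and 5.48 log2 CPM at 22 °C and 13.85, 13.85, 14.37 and 14.05 at 37 °C (LFC 8.87 ± 0.35, limma adjusted p = 7.46e-16). The other cytosolic members changed less, with LFCs of 2.04 for HSP90.2, 1.57 for HSP90.4 and 0.79 for HSP90.3, which was not called. HSP90.5 of the chloroplast rose by 2.14, HSP90.6 of the mitochondrion by 2.83 and HSP90.7 of the endoplasmic reticulum by 1.33.
ROF2 (AT5G48570), an immunophilin that binds HSP90, had 2.94, 2.87, 3.57 and 3.49 at 22 °C and 11.99, 11.99, 12.37 and 12.20 at 37 °C (LFC 8.92 ± 0.29). BAG6 (AT2G46240), a calmodulin-binding co-chaperone, had 2.79, 3.03, 3.76 and 2.79 at 22 °C and 11.58, 11.41, 11.99 and 12.04 at 37 °C (LFC 8.66 ± 0.23). HOP3, which links HSP70 to HSP90, rose by 7.55 while HOP1 had −0.55, and FES1A rose by 5.81.

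HSP101 (AT1G74310), the disaggregase that pulls proteins out of clumps and that plants need to survive severe heat, had 4.89, 4.89, 6.09 and 5.59 log2 CPM at 22 °C and 12.53, 12.49, 13.53 and 13.85 at 37 °C (LFC 7.73 ± 0.33, limma adjusted p = 3.51e-15). Its relatives CLPB3 of the chloroplast and CLPB4 of the mitochondrion rose by 3.52 and 4.6, and HSA32, which extends acquired thermotolerance, by 7.26. Within the chaperonins, the barrel-shaped folding machines of organelles, mitochondrial HSP60 rose by 2.98 and its co-chaperonin CPN10 by 2.55, while CPN60A of the chloroplast rose by 1.80 and CPN60B had −0.57 and was not called. HSP101 overlaps AT1G74300 on the other strand, which rose by 4.37, and 22 of the 57 genes with LFCs over 5 overlap a gene on the other strand. The strand used in counting is not given in the sources used here, so reads of such pairs (HSP17.4 with AT3G46220 and AT3G07365, MBF1C with AT3G04685, PDX1.2 with AT3G03215, EGY3 with AT1G05353) cannot be told apart.

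The chaperone transcripts together came to hold a large part of each heated library. The 63 genes of the 4 chaperone lists held 1.56%, 1.43%, 1.91% and 1.76% of the summed CPM in replicates 1 to 4 at 22 °C and 19.1%, 19.5%, 21.2% and 21.5% at 37 °C. The small HSPs alone went from 0.0117% to 0.0265% of the sum at 22 °C to 7.84% to 11.0% at 37 °C, and replicate 2 had the largest small HSP share and the smallest HSP70 share (4.1%) of the heated libraries. All 1794 called rises together held 3.86% ± 0.0755 (SD, n = 4) at 22 °C and 36.4% ± 1.84 at 37 °C. The 1620 called falls held 39.1% ± 0.549 and 13.4% ± 1.01. These lists were chosen with results of these data known, and the called sets by the contrast itself, so the shares are a description with no test.

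**Figure D3:**
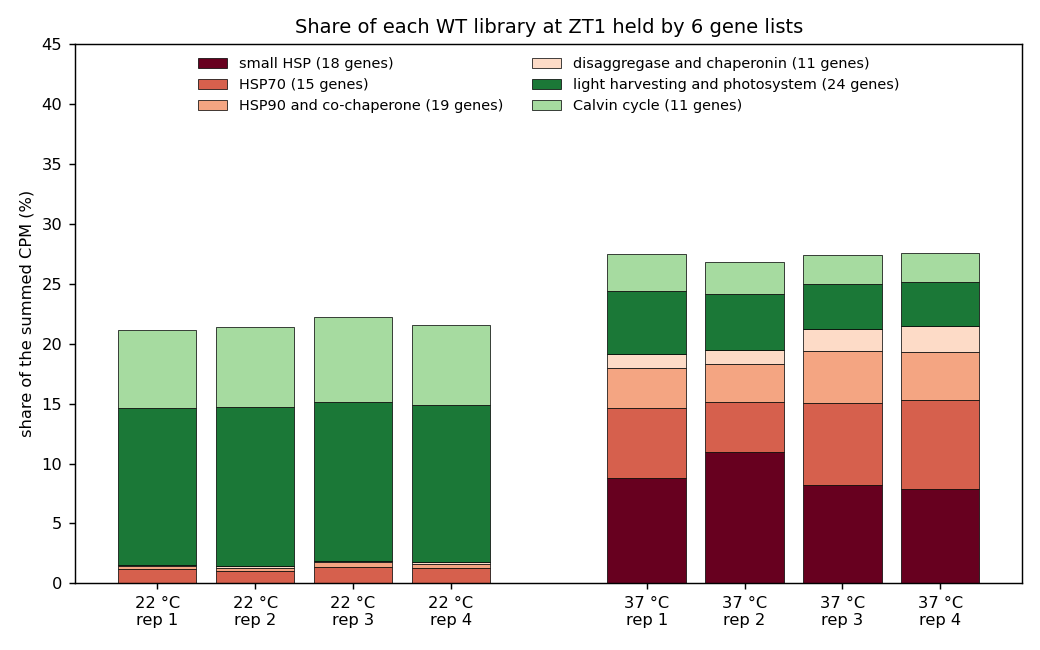
Share of the summed CPM (vertical axis, %) held in each WT library at ZT1 by 4 chaperone lists (reds) and 2 photosynthesis lists (greens), stacked from 0. The chaperones take 1.43% to 1.91% at 22 °C and 19.1% to 21.5% at 37 °C, and the light harvesting and photosystem list takes 13.1% to 13.3% and 3.63% to 5.27%.

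Among the HSFs, 11 of 21 rose, against 6.97% of all genes, and none fell, with a median LFC of 1.04. HSFA2 (AT2G26150), the factor that sustains the response, had 2.68, 3.32, 4.08 and 3.60 log2 CPM at 22 °C and 10.67, 10.78, 11.12 and 11.34 at 37 °C (LFC 7.56 ± 0.24, limma adjusted p = 6.99e-18). HSFA7B (AT3G63350) had no reads in 3 of the 22 °C libraries and 1.53 in replicate 4, and at 37 °C it had 7.20, 7.10, 7.5 and 7.71 (LFC 6.07 ± 0.17). HSFA7A (AT3G51910) had 2.94, 2.46, 2.38 and 2.34 at 22 °C and 7.35, 7.45, 7.5 and 8.06 at 37 °C (LFC 5.06 ± 0.21). The members of class A1, which start the response, differed among themselves. HSFA1E (AT3G02990) had 2.94, 3.55, 2.61 and 2.79 at 22 °C and 5.19, 5.22, 5.53 and 5.63 at 37 °C (LFC 2.42 ± 0.23) and HSFA1D rose by 1.54, while HSFA1B had 0.14 and HSFA1A −0.68 and neither was called. HSFB1 (AT4G36990), a repressor of the class B, was expressed at both temperatures, with 6.50, 6.61, 6.21 and 6.75 at 22 °C and 9.88, 9.76, 10.11 and 10.26 at 37 °C (LFC 3.48 ± 0.16), and its relatives HSFB2A and HSFB2B rose by 3.50 and 2.90. The called member with the smallest LFC, HSFB4 at 1.04, was lost in the fit on the 8 WT libraries alone (adjusted p = 0.154), without filter (0.0796) and without replicate 3 at 37 °C, replicate 2 at 22 °C or replicate 4 at 22 °C (adjusted p = 0.139, 0.153 and 0.0579).

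The letters of the heat shock element could be read in front of several of the genes with the largest rises. The element is built of alternating 5-base units, and a match of 3 units was searched as GAANNTTCNNGAA on both strands, in the 250 bases before the annotated gene start of RefSeq on TAIR10.1. The 5 promoters below belong to the most induced small HSPs, to HSFA2 and HSFA7A, and to DREB2A, a factor described further below, and are shown because they carry the match; it stands in capitals.
HSP17.6C, LFC 11.53, chr1:19980049-19980298, plus strand: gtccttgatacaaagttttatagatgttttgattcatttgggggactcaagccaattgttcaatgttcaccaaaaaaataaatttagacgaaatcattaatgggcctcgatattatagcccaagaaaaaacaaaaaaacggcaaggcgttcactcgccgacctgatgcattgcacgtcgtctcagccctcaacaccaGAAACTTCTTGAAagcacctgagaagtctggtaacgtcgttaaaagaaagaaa
HSP17.4, LFC 10.94, chr3:16984868-16985117, minus strand: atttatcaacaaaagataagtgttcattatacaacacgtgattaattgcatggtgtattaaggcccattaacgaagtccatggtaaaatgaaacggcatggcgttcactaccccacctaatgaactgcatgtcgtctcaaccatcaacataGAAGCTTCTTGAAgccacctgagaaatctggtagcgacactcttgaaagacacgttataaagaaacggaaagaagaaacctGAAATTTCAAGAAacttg
HSFA2, LFC 7.56, chr2:11135374-11135623, plus strand: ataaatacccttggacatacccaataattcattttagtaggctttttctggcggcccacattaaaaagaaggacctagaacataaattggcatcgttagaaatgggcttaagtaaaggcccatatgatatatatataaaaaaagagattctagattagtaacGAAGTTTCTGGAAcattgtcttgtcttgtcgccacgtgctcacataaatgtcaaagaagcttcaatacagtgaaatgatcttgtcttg
HSFA7A, LFC 5.06, chr3:19264891-19265140, plus strand: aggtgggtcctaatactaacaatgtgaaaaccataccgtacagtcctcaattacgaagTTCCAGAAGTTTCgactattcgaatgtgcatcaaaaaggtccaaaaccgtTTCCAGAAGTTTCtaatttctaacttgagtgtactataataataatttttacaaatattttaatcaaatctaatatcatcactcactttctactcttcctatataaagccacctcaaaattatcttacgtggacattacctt
DREB2A, LFC 4.84, chr5:1601955-1602204, plus strand: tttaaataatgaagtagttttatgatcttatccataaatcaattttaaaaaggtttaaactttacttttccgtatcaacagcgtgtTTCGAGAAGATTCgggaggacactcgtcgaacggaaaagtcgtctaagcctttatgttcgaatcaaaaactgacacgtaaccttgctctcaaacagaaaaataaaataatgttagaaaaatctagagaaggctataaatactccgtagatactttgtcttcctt
In HSP17.6C the match starts 53 bases before the gene start. HSP17.4 has 2 matches, at 99 and 18 bases, and HSFA7A has 2 at 192 and 142 bases, against 88 bases for HSFA2 and 164 for DREB2A.

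The share of promoters with a match was highest in the class with the largest rises. Of the promoters of the 57 genes with an LFC over 5, 7 held the 3-unit element (12.3%), namely those of HSP17.6C, HSP17.4, HSFA2, GolS1, HSFA7B, HSFA7A and AT1G71000. The share was 1.66% for LFCs of 2 to 5, 1.34% for LFCs of 1 to 2 and 0.35% for genes not called, against 0.385% of all 37897 promoters of the annotation. Of the 1620 genes that fell, 2 held it, and none of the 122 with the deepest falls. A pair of units, GAANNTTC, was in 22.8% of the first class and in 9.38% of the genes not called, against 9.44% of all promoters. The G-box CACGTG, bound by basic helix-loop-helix and basic leucine zipper factors, was spread in another way, with 14%, 16.1% and 12.7% in the 3 classes of rises, 6.18% of genes not called, 6.21% of falls of 1 to 2, 11.5% of falls over 2 and 5.39% of all promoters. The evening element AAAATATCT of clock-controlled genes was in 1.75%, 3.7% and 3.69% of the 3 classes of rises, 2.1% of genes not called, 3.14% of falls of 1 to 2, 1.64% of falls over 2 and 2.11% of all promoters. A match is not a bound site, and a promoter without one says only that the letters are not in this window.

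**Figure D4:**
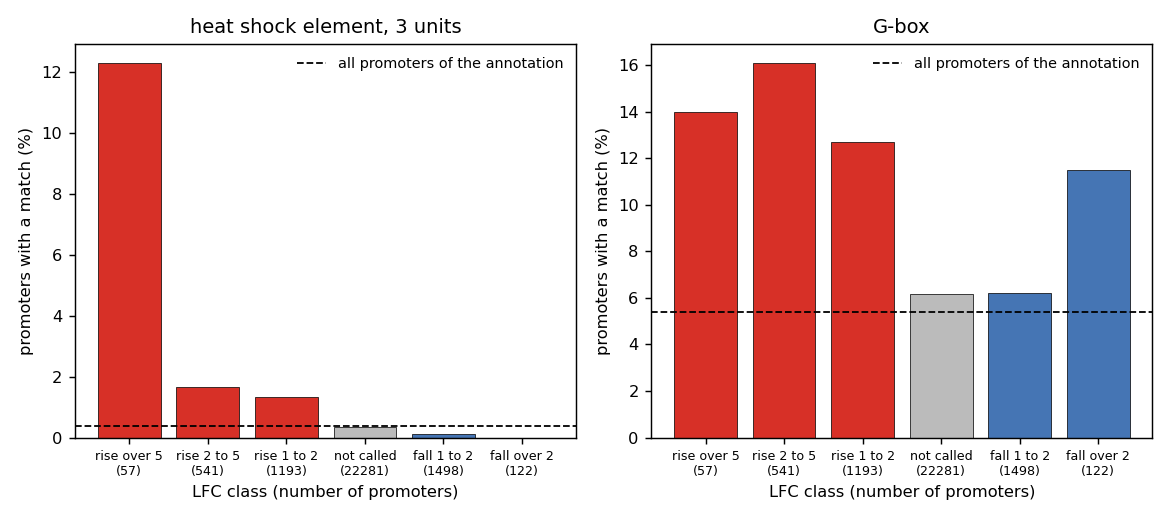
Share of promoters (250 bases before the gene start, %) with a match to the 3-unit heat shock element (left) and to the G-box (right), by LFC class at 37 °C, with the number of promoters in brackets and the share of all promoters as a dashed line. The heat shock element falls from 12.3% in the class over 5 to 0.35% in genes not called, and the G-box stays between 12.7% and 16.1% in all 3 classes of rises.

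Protective enzymes and regulators outside the chaperones rose with them, 7 of 12 on the list against 6.97% of all genes. APX2 (AT3G09640), a cytosolic ascorbate peroxidase that removes hydrogen peroxide, had no reads in any 22 °C library and 8.92, 9.22, 9.28 and 9.09 log2 CPM at 37 °C (limma adjusted p = 7.8e-22). Its fitted LFC, 7.90 ± 0.15, depends on the offset of the authors and is no measure of the fold. APX1, its constitutive relative, had an LFC of 0.66 and was not called. GolS1 (AT2G47180), which makes galactinol for the protective raffinose sugars, had 5.18, 5.53, 5.99 and 4.86 at 22 °C and 11.72, 11.93, 11.55 and 11.69 at 37 °C (LFC 6.33 ± 0.19). MBF1C (AT3G24500), a transcriptional coactivator needed for thermotolerance, had 4.91, 5.37, 5.55 and 5.77 at 22 °C and 11.37, 11.51, 11.69 and 11.58 at 37 °C (LFC 6.14 ± 0.21), and MBF1A and MBF1B had 0.35 and 0.40 and were not called.
Among the relatives of GolS1, GolS2 rose by 3.26 and GolS3 had −0.32.

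APX2 was 1 of 76 called genes that lay at the lowest value in all 4 libraries at 22 °C, of 1616 such genes tested, and no gene reached a higher level from there. Of all genes tested 6.97% were called higher. Genes at the lowest value cannot fall, and these were tested only where 3 or more other ZT1 libraries exceeded it. The heated libraries can be among those, so both counts depend on the filter. FTSH6 (AT5G15250), a protease of the chloroplast that degrades HSP21, was listed at 1.23 in all 22 °C libraries and at 6.07, 6.29, 5.99 and 6.40 at 37 °C. The genes AT1G21940 (6.03, 5.95, 6.16 and 6.17 at 37 °C) and AT5G53680 (5.34, 5.78, 5.61 and 6.17) followed. Of the next 6 by level, AT5G03975 lies across the strongly induced AT5G25450, so its reads may belong there. In the other direction 41 of the 1620 called falls had no reads in any 37 °C library. How many of all genes tested had none there is not given, so no share is set beside this count.

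In the endoplasmic reticulum the folding genes rose in part. Of 20 members 10 were called higher, against 6.97% of all genes, and none lower, with a median LFC of 1.05. ERDJ3A (AT3G08970), a J-domain partner of the chaperone BiP, had 2.68, 2.46, 2.38 and 2.79 log2 CPM at 22 °C and 8.27, 7.88, 9.06 and 9.21 at 37 °C (LFC 6.03 ± 0.28, limma adjusted p = 1.42e-14). BIP1 (AT5G28540), the main BiP, had 7.44, 7.40, 7.69 and 7.70 at 22 °C and 10.53, 10.45, 10.80 and 10.94 at 37 °C (LFC 3.12 ± 0.16), and BIP2, nearly identical to it, rose by 2.46. BIP3 (AT1G09080), the member that the unfolded protein response switches on, stayed near the lowest value, with 1.50, 1.23, 1.23 and 1.23 at 22 °C and 1.23, 2.17, 1.23 and 1.91 at 37 °C (LFC 0.34 ± 0.24, limma adjusted p = 0.295). A change of BIP3 was not detectable at this depth. The membrane-bound factor BZIP28 rose by 2.34 and BZIP17 by 1.11, whereas BZIP60, whose RNA is cut by IRE1 in this response, had 0.98 and was not called. The proteasome list showed no called change, with 9 LFCs between −0.28 and 0.57.

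Factors known from stress responses rose as well. DREB2A (AT5G05410), which acts in drought and heat and switches on HSFA3, had 2.90, 2.2, 3.22 and 2.59 log2 CPM at 22 °C and 7.26, 7.28, 7.88 and 7.86 at 37 °C (LFC 4.84 ± 0.24, limma adjusted p = 6.08e-14), and DREB2B rose by 3.06. The zinc finger factor ZAT6 (AT5G04340) had 3.14, 3.87, 3.46 and 3.14 at 22 °C and 6.55, 7.17, 7.13 and 7.15 at 37 °C (LFC 3.60 ± 0.25). ZAT10 (AT1G27730), known from responses to reactive oxygen, had 2.63, 2.46, 2.95 and 2.59 at 22 °C and 5.52, 5.55, 6.03 and 6.08 at 37 °C (LFC 3.14 ± 0.25), and ZAT12 rose by 2.72. MYB102, NAC069, DREB19, NAC13 and WRKY75 rose by LFCs between 2.36 and 2.76. TCP3 (AT1G53230), a factor of leaf differentiation, went the other way, with 5.21, 4.84, 5.15 and 5.38 at 22 °C and 3.22, 2.62, 2.35 and 2.81 at 37 °C (LFC −2.39 ± 0.25). Beside ZAT10 and ZAT12 the list of 11 antioxidant genes held 2 falls (4 without replicate 2 at 37 °C), against 6.3% of all genes. These were RBOHD, the oxidase that makes apoplastic superoxide (−1.44), and the catalase CAT2 (−1.15).

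Genes of abscisic acid (ABA), the hormone of water deficit, rose without exception among those called. These were 13 of 21, against 6.97% of all genes, and the median LFC of the list was 1.43. KIN1 (AT5G15960), a target of the hormone, had 4.23, 5.59, 4.21 and 3.67 log2 CPM at 22 °C and 7.87, 7.89, 8.04 and 7.90 at 37 °C (LFC 3.50 ± 0.32, limma adjusted p = 5.71e-09). ABI2 (AT5G57050), a phosphatase that shuts the signal off, had 4.38, 4.5, 3.67 and 4.05 at 22 °C and 6.00, 6.10, 6.59 and 6.57 at 37 °C (LFC 2.17 ± 0.20). The related phosphatases HAI1, HAI2, HAI3 and ABI1 rose by 1.68 to 2.58, so the members that rose include both negative regulators of the pathway and the enzymes at its ends, NCED3 for synthesis (1.81) and CYP707A4 for breakdown (2.84). Targets shared with cold did not all follow, since RD29A had −0.47 and COR15A −0.50, neither called. RD29B (1.49) was lost in the fit on the 8 WT libraries alone (adjusted p = 0.0753).

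In the clock list 5 of 21 genes rose and 2 fell, against 13.3% of all genes called in either direction. LHY (AT1G01060), a morning repressor of the clock, had 9.41, 8.44, 8.80 and 9.27 log2 CPM at 22 °C and 7.15, 6.74, 7.21 and 7.15 at 37 °C (LFC −1.92 ± 0.19, limma adjusted p = 2.94e-08). CCA1 (AT2G46830), its partner and closest relative, had 8.83, 8.26, 8.52 and 8.72 at 22 °C and 8.71, 8.39, 8.93 and 8.85 at 37 °C (LFC 0.14 ± 0.42), and the groups overlapped. This standard error is pooled over all groups of ZT1, *cca1lhy* among them, and does not measure the WT spread alone. The limma adjusted p was 0.861, and 0.594 in the fit on the 8 WT libraries alone. The coactivator LNK2 fell by 1.53, while LNK1 had −0.01.
The pseudo-response regulators that follow CCA1 and LHY in the day were higher. PRR9 (AT2G46790) had 5.76, 5.25, 5.53 and 5.79 at 22 °C and 6.83, 6.36, 6.91 and 7.08 at 37 °C (LFC 1.21 ± 0.17), and PRR7 (AT5G02810) 5.22, 4.5, 5.11 and 5.34 and 6.55, 6.38, 6.90 and 7.07 (LFC 1.69 ± 0.19). PRR5 rose by 1.59, and TOC1, the last of the series, had −0.07. The evening genes BOA and ELF3 rose by 1.26 and 1.03. ELF3 missed the LFC threshold without replicate 3 at 37 °C (0.94) and without replicate 2 at 22 °C (0.96). When an LFC over 1 was itself tested (limma's treat), PRR9, PRR5, LNK2, BOA and ELF3 lost their calls. With 8 CPM added PRR5, BOA and ELF3 had LFCs of 0.68, 0.53 and 0.74.

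Falls were more frequent among highly expressed genes. With genes binned by their level in *cca1lhy* at 22 °C, libraries outside this contrast, 10.1% of the genes at 4 to 6 log2 CPM were called lower, 26.1% of those at 8 to 10 and 20 of the 23 genes over 12. The median LFC was −0.19, −0.69 and −1.43 in these bins. Genes near the lowest value of 1.23 have little room for a fall over 1, so the lowest bins are not compared. The chaperone share of the libraries rose over the same contrast, and the summed CPM of a library is a fixed total. The part of this in each fall below was not tested. Scaling each library to the median of 9 reference genes left 1483 falls and 1879 rises, and of the reference genes themselves EF1A (−1.43) and ACT2 (−1.31) were called lower.

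Genes of the photosynthetic apparatus were the largest such group. Of 24 light harvesting and photosystem genes 22 fell, against 6.3% of all genes, with a median LFC of −1.32, and of 11 Calvin cycle genes 10 fell (median −1.63). LHCB1.3 (AT1G29930), a chlorophyll-binding antenna protein, was the highest gene of every 22 °C library at 15.09 log2 CPM, a value the normalization fixes, and had 13.16, 12.53, 12.49 and 12.49 at 37 °C (5.36-fold lower, LFC −2.42 ± 0.30, limma adjusted p = 7.91e-07). RBCS1A (AT1G67090), a small subunit of Rubisco, was second at 14.37 in every 22 °C library and had 12.61, 12.37, 12.53 and 12.42 at 37 °C (LFC −1.89 ± 0.24). LHCB2.1 (AT2G05100), another antenna gene, had 12.61, 13.16, 12.74 and 12.74 at 22 °C and 10.72, 10.84, 10.22 and 10.31 at 37 °C (LFC −2.29 ± 0.19).
The response was not uniform. Photosystem II subunit PSBO1 fell by 1.45 and its near copy PSBO2 had −0.07, and RCA, the activase that keeps Rubisco working and is itself sensitive to heat, had −0.41 and was still among the 3 highest genes in replicate 1 at 37 °C. Reads of the LHCB1 and RBCS copies can be assigned to a relative. With all genes of the table in the fit, LHCB1.3, RBCS1A, LHCB1.1, LHCB1.2 and LHCB1.5 lost their calls (adjusted p = 0.844, 0.314, 0.243, 0.0514 and 0.579).

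GLK1 (AT2G20570), a factor that switches on the nuclear genes of the chloroplast, had 7.77, 8.04, 8.46 and 8.32 log2 CPM at 22 °C and 5.76, 5.59, 5.74 and 5.67 at 37 °C (LFC −2.46 ± 0.17, limma adjusted p = 4.58e-11). In whole seedlings, fewer cells of a type and less of the RNA in each cell cannot be told apart. Both leaf and root markers were present in all 8 libraries. Of 6 leaf markers, 4 of which also stand on the photosynthesis lists, 5 fell, against 6.3% of all genes. The summed share of the leaf markers went from 4.76% to 4.88% at 22 °C to 1.84% to 2.59% at 37 °C. Of 8 root markers 2 fell, against the same 6.3%, BGLU23 (−2.15) and SCR (−1.73), while CASP1 had −0.25 and TIP2;3 0.42. The share of the root markers went from 0.224% to 0.373% to 0.0946% to 0.104%. The part of tissue make-up in the falls was not tested.

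**Figure D5:**
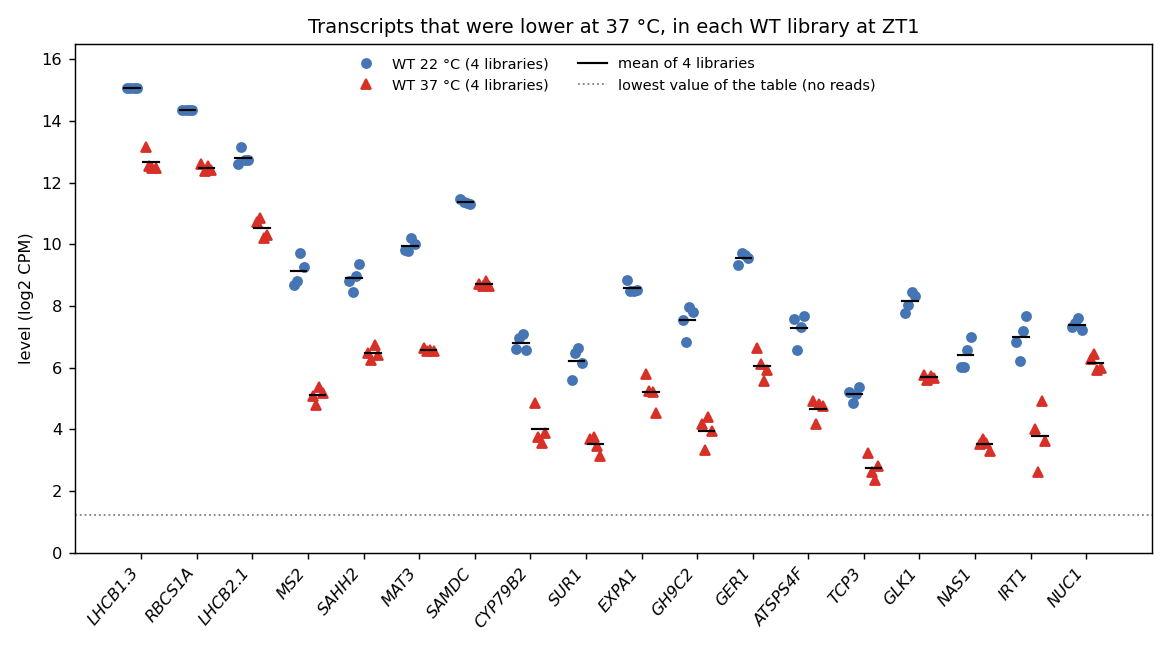
Level (log2 CPM) of 18 genes with lower values at 37 °C in each WT library at ZT1, 22 °C as blue circles and 37 °C as red triangles, with the group mean as a black bar and the value of a gene without reads (1.23) as a dotted line. No gene shown overlaps between the temperatures, and MS2 has the largest difference (LFC −4.02).

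The deepest fall of any named gene was in the methionine cycle, which makes S-adenosylmethionine, the methyl donor of the cell. Of 10 genes 8 fell, against 6.3% of all genes, with a median LFC of −1.89. MS2 (AT3G03780), a methionine synthase, had 8.69, 8.81, 9.73 and 9.26 log2 CPM at 22 °C and 5.07, 4.79, 5.38 and 5.17 at 37 °C (16.2-fold lower, LFC −4.02 ± 0.29, limma adjusted p = 8.43e-11). MAT3 (AT2G36880), which joins methionine to adenosine, had 9.82, 9.78, 10.20 and 10.03 at 22 °C and 6.65, 6.53, 6.58 and 6.55 at 37 °C (LFC −3.38 ± 0.16). SAHH2 (AT3G23810), which clears the by-product of methylation, had 8.82, 8.46, 8.97 and 9.35 at 22 °C and 6.49, 6.25, 6.74 and 6.43 at 37 °C (LFC −2.42 ± 0.18).
Each of these steps also had a member that moved little or less, since MS3 had −0.54, SAM2 −0.24 and SAHH1 −1.6. SAMDC (AT3G02470), which turns S-adenosylmethionine towards the polyamines, fell from 11.47, 11.37, 11.34 and 11.31 to 8.72, 8.65, 8.83 and 8.66 (LFC −2.66 ± 0.15). Without replicate 3 at 22 °C 6 of the 10 genes were called, since CGS1 (−0.97) and SAM1 (−0.95) missed the LFC threshold.

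Sulfur metabolism beyond methionine showed falls in most glucosinolate genes and in a few genes of sulfate uptake and reduction. Glucosinolates are sulfur-rich defence compounds of this plant family. Of 19 genes for them 16 fell, against 6.3% of all genes, and none rose, with a median LFC of −1.78. CYP79B2 (AT4G39950), which starts the indole branch from tryptophan, had 6.61, 6.97, 7.11 and 6.56 log2 CPM at 22 °C and 4.86, 3.75, 3.57 and 3.89 at 37 °C (LFC −2.79 ± 0.22, limma adjusted p = 2.6e-10). SUR1 (AT2G20610), the lyase shared by all branches, had 5.61, 6.46, 6.63 and 6.16 at 22 °C and 3.70, 3.75, 3.46 and 3.14 at 37 °C (LFC −2.70 ± 0.22). The falls took in the aliphatic branch (CYP79F1 −2.40, its regulators MYB28 −1.82 and MYB29 −1.56) and the transporters GTR2 and GTR1 (−2.09 and −1.25), while MYB34 and MYB51, regulators of the indole branch, had −0.69 and −0.29 and were not called.
In sulfate uptake and reduction 3 of 12 genes were called, all lower, against 6.3% of all genes. The root transporter SULTR1;2 (AT1G78000) had 6.41, 5.94, 6.75 and 6.46 at 22 °C and 3.62, 2.95, 4.21 and 4.54 at 37 °C (LFC −2.56 ± 0.28), APS1 fell by 1.06 and SIR by 1.03, and the 3 APR reductases had LFCs between −0.69 and −0.07. SIR missed the LFC threshold without replicate 1 or 2 at 37 °C (−0.99 and −0.98), without replicate 4 at 22 °C (−0.98) and with reference gene scaling (−1.0).

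Genes of the growing cell wall fell, 13 of 23 against 1 rise, with a median LFC of −1.09. Of all genes 6.3% fell. EXPA1 (AT1G69530), an expansin that loosens walls, had 8.84, 8.49, 8.5 and 8.53 log2 CPM at 22 °C and 5.80, 5.25, 5.21 and 4.54 at 37 °C (LFC −3.39 ± 0.20, limma adjusted p = 1.39e-12). GH9C2 (AT1G64390), a glucan hydrolase, had 7.55, 6.85, 7.97 and 7.80 at 22 °C and 4.18, 3.32, 4.39 and 3.96 at 37 °C (LFC −3.58 ± 0.27). EXPA11, EXPA8, EXPA4, EXPA5, EXPA3 and EXPA6 fell by LFCs of −1.97 to −1.06, and of the cellulose synthases CESA5, CESA2 and CESA3 were called lower (−1.62, −1.15 and −1.09) while CESA1 (−0.98) and CESA6 (−0.84) were not. The rise was that of XTH22 (1.6), a touch-inducible wall enzyme.
GER1 (AT1G72610), a germin-like protein of the wall, had 9.34, 9.73, 9.65 and 9.56 at 22 °C and 6.63, 6.12, 5.58 and 5.94 at 37 °C (LFC −3.50 ± 0.17).

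Iron and sugar genes were among the 12 largest falls. IRT1 (AT4G19690), the iron transporter of the root surface, had 6.84, 6.21, 7.20 and 7.68 log2 CPM at 22 °C and 4.00, 2.62, 4.91 and 3.64 at 37 °C (LFC −3.19 ± 0.52, limma adjusted p = 3.38e-05). NAS1 (AT5G04950), which makes the iron carrier nicotianamine, had 6.03, 6.04, 6.58 and 7.0 at 22 °C and 3.53, 3.68, 3.57 and 3.30 at 37 °C (LFC −2.89 ± 0.37). ATSPS4F (AT4G10120), a sucrose-phosphate synthase, had 7.59, 6.58, 7.31 and 7.67 at 22 °C and 4.91, 4.17, 4.82 and 4.75 at 37 °C (LFC −2.62 ± 0.23). GSTU8, a glutathione transferase, fell by 2.77.

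PIF4 (AT2G43010), the factor that drives elongation in mild warmth, rose although the wall genes fell. It had 4.61, 4.84, 4.75 and 4.70 log2 CPM at 22 °C and 6.66, 6.71, 6.58 and 6.75 at 37 °C (LFC 1.95 ± 0.17, limma adjusted p = 1.45e-09). Its targets YUC8 (0.35), IAA19 (0.66) and IAA29 (−0.07) were not called. PHYB (AT2G18790), the red light receptor that also senses warmth and holds PIF4 back, had 7.20, 6.66, 7.20 and 7.24 at 22 °C and 6.01, 5.51, 6.47 and 6.21 at 37 °C (LFC −1.03 ± 0.21). PHYB missed the LFC threshold without replicate 2 at 37 °C (−0.85), without replicate 1, 3 or 4 at 22 °C (−0.99, −0.99 and −0.97) and with reference gene scaling (−1.0). HFR1 (1.17), which binds and blocks PIFs, was lost without replicate 3 at 22 °C (0.84, adjusted p = 0.0587) and in the fit on the 8 WT libraries alone (0.0883).

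Ribosome building in the nucleolus was lower in part, with 5 of 9 genes called lower (median LFC −1.04), against 6.3% of all genes, and no rise. NUC1 (AT1G48920), the nucleolin that opens ribosomal RNA genes, had 7.32, 7.44, 7.62 and 7.21 log2 CPM at 22 °C and 6.27, 6.45, 5.93 and 6.00 at 37 °C (LFC −1.24 ± 0.14, limma adjusted p = 1.15e-07). FIB2 (AT4G25630), a fibrillarin that methylates ribosomal RNA, had 5.10, 6.12, 5.86 and 5.30 at 22 °C and 4.23, 4.5, 4.21 and 4.54 at 37 °C (LFC −1.22 ± 0.21), and its copy FIB1 had −0.37. The other 3 lay just past the threshold, so that 2 genes were called without replicate 3 at 37 °C, and 3 each without replicate 2 and without replicate 3 at 22 °C.

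Of 19 SR splicing factors 4 rose, against 6.97% of all genes, with a median LFC of 0.09. SR30 (AT1G09140) led them, with 4.6, 5.25, 5.28 and 5.00 log2 CPM at 22 °C and 8.24, 8.38, 8.32 and 8.31 at 37 °C (LFC 3.28 ± 0.15, limma adjusted p = 6e-15), and SCL33, SR34b and SC35 rose by 1.76, 1.51 and 1.31. KN (AT1G08560), the syntaxin of the dividing cell plate, had 3.83, 3.03, 3.92 and 3.83 at 22 °C and 6.01, 6.23, 6.40 and 6.40 at 37 °C (LFC 2.61 ± 0.20). It overlaps NPQ1 on the other strand, which rose by 1.18, and no other of the 10 mitosis genes rose, CYCB1;2 having fallen by 1.48. The falls in this list numbered 2 without replicate 4 at 37 °C and 3 without replicate 2 at 22 °C. The jasmonate and cold lists held few calls, to be read against the 13.3% of all genes called in either direction. Of 15 jasmonate genes tested 2 fell, JAZ9 (−1.15) and JAZ6 (−1.11, but −0.93 without replicate 4 at 37 °C), and of 6 cold regulators 1, ICE1 (−1.0), whose call was lost without replicate 4 at 37 °C (−0.79), without replicate 1, 3 or 4 at 22 °C (−0.92, −0.98 and −0.89) and with reference gene scaling (−0.97).

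The heat response of *cca1lhy*, which lacks the morning factors CCA1 and LHY, differed from that of WT for 235 of 25727 genes (0.913%, interaction in the limma fit, adjusted p under 0.05). None of the 18 small HSPs or 15 HSP70s was among them, which does not show that their responses were alike. HSP17.6C, for example, had an LFC of 9.77 in *cca1lhy* and a difference of −1.76 (adjusted p = 0.359). APX2 rose less in *cca1lhy* (difference −1.41, adjusted p = 0.00117), as did GolS1 (−1.20, 0.0319) and SR30 (−1.11, 0.00792). Among called genes the strongest shortfalls in *cca1lhy* were those of ZF3 (AT5G43170), a zinc finger factor, and of LTP4, CIPK20, QWRF9 and WRKY7.
ZF3 had 2.46, 2.67, 2.38 and 2.59 log2 CPM at 22 °C and 4.98, 5.42, 5.27 and 5.69 at 37 °C in WT, an LFC of 2.82 against 0.65 in *cca1lhy* (difference −2.17, adjusted p = 0.00121). QWRF9 overlaps ZF3 on the other strand.

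In the other direction, several falls of WT were smaller or absent in *cca1lhy*. LHCB1.3 fell by 2.42 on the log2 scale in WT and had −0.54 in *cca1lhy* (difference 1.89, adjusted p = 0.0301). ATSPS4F had −2.62 and −0.81 (difference 1.82, adjusted p = 0.0062), and FBA5, an aldolase, −1.46 and 0.30. FRO7 (AT5G49740), an iron reductase of the chloroplast, had 6.87, 6.02, 5.18 and 6.49 log2 CPM at 22 °C and 5.10, 5.07, 4.39 and 4.72 at 37 °C in WT, an LFC of −1.32 against 0.55 (difference 1.87, adjusted p = 0.0117). LHY had −1.92 and −0.15, but *LHY* is itself mutated in these plants. Not every called difference was a weaker response. MTO3 of the methionine cycle list fell by 2.18 in WT and had a negative difference (−0.87 with the replicate block, limma adjusted p = 0.0584, so lost there). HSP90.5 rose by 2.14 in WT and had a positive difference (1.2 with reference gene scaling, 0.0543, so lost there). The count of 235 is less firm than that of the main comparison. It was 75 with reference gene scaling, under which APX2 (−1.14, adjusted p = 0.145), GolS1 (−0.92, 0.24), SR30 (−0.84, 0.264), LTP4 (0.0673), QWRF9 (0.0896) and WRKY7 (0.0534) were lost, and 140 without WT replicate 4 at 22 °C. The calls of GolS1 and LHCB1.3 were also each lost without any of several single libraries, at adjusted p-values up to 0.0824 and 0.0687, and that of LHCB1.3 with the replicate block (0.0505).

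The WT response at ZT6, at midday, was compared gene by gene with that at ZT1. It differed for 2420 of 25631 genes (9.44%, adjusted p under 0.05), with 4 libraries per group at ZT1 and 2 at ZT6. The times were sequenced on different flow cells and normalized separately, so only LFCs are set side by side. None of the 18 small HSPs differed by this test, and HSP17.6C had LFCs of 11.53 and 10.52. With 2 libraries per group at ZT6, the lack of a call does not show that responses were alike, here or for the lists below. Genes without reads have a value of 1.23 at ZT1 and −1.68 at ZT6. The LFCs of genes near the lowest value without heat, HSP17.6C at ZT1 among them, are therefore not on the same scale at both times. HSFB1 rose more at ZT6 (5.04 against 3.48, adjusted p = 1.68e-05), and HSC70-1 had 1.14 at ZT6 against −0.70 (adjusted p = 0.0122).
Several falls were smaller at ZT6 than at ZT1. MS2 had −0.86 at ZT6 against −4.02 at ZT1 (difference 3.16 ± 0.39, adjusted p = 6.17e-06), MAT3 −1.82 against −3.38 (0.00531) and SAHH2 −1.0 against −2.42 (0.00194). GLK1 had −0.30 against −2.46 (0.000248), and ATSPS4F 0.30 against −2.62 (3.9e-06). For the light harvesting list no member differed by this test, and neither did any of the 19 glucosinolate genes. Of the Calvin cycle list 5 of 11 genes differed, against 9.44% of all genes. The other chaperone lists also held differences, with 4 of 15 HSP70s, 5 of 19 genes of HSP90 and co-chaperones and 3 of 11 disaggregases and chaperonins. Among the HSFs 4 of 21 differed.

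Rises that belonged mainly to ZT1 were those of LTP3, KN, LTP4, MT2A and CCL. LTP3 (AT5G59320), a lipid transfer protein, had 1.86, 2.46, 2.13 and 2.02 log2 CPM at 22 °C and 5.63, 6.76, 6.65 and 6.02 at 37 °C at ZT1, an LFC of 4.15 against −0.33 at ZT6 (difference −4.48 ± 0.57, adjusted p = 2.63e-05). KN had 2.61 and −0.41 (adjusted p = 9.38e-05), and PIF4 1.95 and 0.70 (0.00154). In the other direction the largest differences were those of cPT4, ELIP1, MS2, UNE10 and ABCG27. cPT4 (AT5G58770), a prenyltransferase, had 7.71, 7.46, 7.35 and 7.79 at 22 °C and 10.18, 10.10, 10.06 and 10.10 at 37 °C at ZT1, an LFC of 2.53 against 6.91 at ZT6. ELIP1 (AT3G22840), a light stress protein of the chloroplast, had 5.66, 6.58, 6.56 and 5.77 and 8.19, 8.36, 9.09 and 8.77, an LFC of 2.46 against 6.02. UNE10 and ABCG27 fell by 1.95 and 2.08 at ZT1 and had 1.11 and 0.91 at ZT6.
In the clock, 12 of 21 genes differed, against 9.44% of all genes. CCA1 had 0.14 at ZT1 against 3.27 at ZT6 (adjusted p = 5.26e-05), PRR9 1.21 against 3.66 (1.41e-05) and LHY −1.92 against −0.19 (0.0384), and PRR7 1.69 against 1.4 (0.643). With the fits restricted to WT at 37 °C and 22 °C the count was 990, and LHY (adjusted p = 0.328), HSC70-1 (0.26), MAT3 (0.16) and PIF4 (0.0712) were lost. LHY was also lost without replicate 2 at 37 °C, replicate 1 at 22 °C or replicate 4 at 22 °C (0.0574, 0.0576 and 0.0549).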

How the data were processed

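The authors cut adapters from single-end RNA-seq reads of whole seedlings with cutadapt and aligned them to TAIR10 by TopHat2 (version 2.0.14), which ran Bowtie2 (version 2.2.5). The authors then counted reads on Araport11 exons per gene with GenomicFeatures (union mode), put an offset of 5 on each count, and followed edgeR scaling by limma's voom with quantile normalization, done for ZT1 and ZT6 apart. The deposited values are log2 CPM, although the header of the tables calls them CPM. The authors' group means, fold changes and false discovery rates, also deposited, were not used. Columns were matched to samples by title at ZT1 and to groups at ZT6, where table and label numbers of replicates differ. The ZT1 libraries are described as biological replicates and the ZT6 libraries, 2 per group, only as replicates, so p-values there measure only the spread between these samples.

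limma (3.58.1, R 4.3.3, trend) was fitted to the 6 groups of ZT1 together, and to those of ZT6, with genes kept if 3 or more libraries (ZT1) or 2 (ZT6) exceeded the lowest value. A call needs a Benjamini-Hochberg adjusted p under 0.05 over all genes tested and an LFC over 1 in size. LFCs are given ± standard error. The *cca1lhy* response was compared as an interaction in the same fit. For ZT6 minus ZT1 the standard errors of the 2 fits were combined, with degrees of freedom after Satterthwaite. Both needed an adjusted p under 0.05. Shares are of the summed linear CPM. Reads per library are approximate estimates. The code was tested on simulated data.

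Members and gene lists were chosen with earlier results of these data known, and so was the rule for named genes. It takes the 12 largest rises and falls among called, separated genes with a symbol, list members, with up to 4 called ones and those of a defining role given by library, the 5 largest differences each way from *cca1lhy* and from ZT6, the 10 highest levels among rises and falls, the 10 highest genes without reads at 22 °C, and the 12 largest changes among transcription factor symbols. Overlapping genes, AT1G71000, PDX1.2 and EGY3 are named for their position or motif. The symbol GER1 stands for 2 genes, and AT1G72610 is meant. Of 37898 identifiers 37749 occur in the RefSeq annotation of TAIR10.1, which gave symbols, overlaps and the 250 bases before each gene start. Alternatives covered the samples fitted, the replicate block, trend, filter, offset, scaling, LFC threshold and each library left out.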

Additional observations from a re-analysis of the deposited data

Results flagged for a closer look

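In 10 of the 122 groups of 4 libraries examined for the 64 genes given by library, 1 library stood apart from the other 3 by Dixon's criterion at 95%, where chance gives about 1 group in 20. At 22 °C these were HSFA7B at 1.53 log2 CPM in replicate 4, HSP70B at 5.28 in replicate 3, BIP3 at 1.50 and EXPA1 at 8.84 in replicate 1, and PHYB at 6.66 and KN at 3.03 in replicate 2. At 37 °C these were HSP70-4 at 14.37 and LHY at 6.74 in replicate 2, and LHCB1.3 at 13.16 and ZAT6 at 6.55 in replicate 1. For HSFA7B and BIP3 at 22 °C the other 3 libraries had no reads. For HSP70-4 at 37 °C they shared the top value that the normalization fixes. Any differing value is flagged in such tied groups, so the rate of 1 in 20 does not hold for them.

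The heat LFC of *cca1lhy* differed from that of WT, by the interaction of the limma fit, for APX2 (−1.41), GolS1 (−1.20), SR30 (−1.11), ZF3 (−2.17), LHY (1.77), LHCB1.3 (1.89), ATSPS4F (1.82) and FRO7 (1.87). The heat LFC of WT was larger at ZT6 than at ZT1, as a signed value, for HSFA7B (2.12), HSFB1 (1.56), HSC70-1 (1.85), LHY (1.73), CCA1 (3.13), PRR9 (2.45), MS2 (3.16), MAT3 (1.56), SAHH2 (1.43), GLK1 (2.16), ATSPS4F (2.92), FTSH6 (1.43), AT5G53680 (2.28), ELIP1 (3.56), cPT4 (4.37) and FRO7 (2.2). It was smaller at ZT6 for PIF4 (−1.25), KN (−3.02) and LTP3 (−4.48). Genes without reads have a lower value in the ZT6 table (−1.68) than at ZT1 (1.23), and HSFA7B, FTSH6 and AT5G53680 were at or near the lowest value at ZT1 at 22 °C. With the lowest ZT6 value raised to that of ZT1 none of these 3 differences was called (0.52, −0.76 and −0.64).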

How the results depend on the processing

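The counts of rises and falls (1794 and 1620) were 793 and 928 under the stricter filter, 967 and 629 with 8 CPM added, 599 and 122 with an LFC over 2, 3609 and 4824 with no LFC threshold, and 821 and 239 with limma's treat. All but 2 of the falls under the stricter filter were also called in the main comparison. With 1 library left out the rises ran from 1746 to 1871 and the falls from 1593 to 1812, and 1472 rises and 1063 falls were called in all 8 of these fits. The difference between *cca1lhy* and WT (235) was 75 with reference gene scaling and ran from 140 to 314 with 1 library left out. The difference between the times (2420) was 990 with fits on WT at 37 °C and 22 °C only, and ran from 1919 to 2755 with 1 library left out. Of the 990 genes, 829 were among the 2420. With the lowest ZT6 value raised to that of ZT1, the count was 2179 of the 19669 genes then tested, and 1772 of these were among the 2420. Under that setting FTSH6 (−0.76) and AT5G53680 (−0.64) changed sign and HSFA7B went from 2.12 to 0.52 (adjusted p = 0.346). HSFA7B (0.131) and FTSH6 (0.163) were also lost with the fits on WT at 37 °C and 22 °C only. Subtracting the lowest value moved the change in share from 18.7 to 20.4 percentage points for the 4 chaperone lists, from −8.88 to −9.69 for light harvesting and from −4.08 to −4.45 for the Calvin cycle. Of 4788 comparisons for 276 single values, 4556 kept their direction and side of the threshold. The causes were not tested. Whether replicate numbers pair the samples was not settled. Same-numbered libraries at 22 °C and 37 °C correlated in their deviations at 0.031, 0.292, 0.018 and 0.079. Libraries with different numbers correlated at −0.228 to 0.127. With the replicate block the counts were 1794 and 1620, and 279 for the difference between *cca1lhy* and WT. Depth limits calls near the lowest value, where 1 read moves a gene from 1.23 to between 1.36 and 1.94 in the 8 libraries.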
